A study of Mus musculus with 34 samples.

Results

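The Hox cluster genes are the homeobox genes that mammals carry in 4 tight clusters, *Hoxa*, *Hoxb*, *Hoxc*, and *Hoxd*. All gene symbols that begin with Hoxa, Hoxb, Hoxc, or Hoxd and a digit were taken, apart from 2 opposite-strand transcripts, which gave 39 genes of 23109 with a value in the files. These were 11 genes of the *Hoxa* cluster, 10 of *Hoxb*, 9 of *Hoxc*, and 9 of *Hoxd*. RNA-Seq was performed on 14 cultures of brown preadipocytes immortalized with SV40T, cells that can mature into brown fat and that came from the interscapular brown adipose tissue of newborn mice. Cells that received a retrovirus for WT H3.3, a variant of histone H3, or for H3.3 with lysine 36 changed to methionine (K36M) were collected at D0, D2, and D7 of adipogenesis (WT and K36M cells). Sub-confluent cells of both kinds that were also given retroviral PPARγ, the nuclear receptor that drives fat cell formation, were treated with DMSO or with its ligand rosiglitazone (Rosi). Cells infected with lentivirus expressing control (Ctrl) or *Nsd2* knockdown (KD) shRNA were collected at D0 and D2. Adipogenesis was induced with insulin, T3, IBMX, dexamethasone, and indomethacin for the first 2 days, so D2 and D7 libraries also differ from D0 in medium. The labels give the cells as C57BL/6J and GR-flox/flox for every sample and mention a control vector or Cre for making GR KO cells, whereas the paper describes cells of WT mice. Each condition has 1 library and the sources mention no repeated infections of 1 kind, so a difference between 2 libraries has no replicate check, no test across conditions was made, and the 5 K36M libraries are not replicates. The label time is 0 h for DMSO and 24 h for Rosi. The paper describes equal durations for both, and if the labels hold, Rosi and time in culture cannot be told apart.

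Hox proteins are transcription factors that give cells their position along the head-to-tail axis and along the limb. Within a cluster the genes are numbered by paralog group from 1 to 13, and low numbers (anterior genes) are used toward the head while high numbers (posterior genes) are used toward the tail and the tip of the limb. Cells of connective tissue and fat keep the Hox code of the place they came from. The clusters are classic targets of trithorax proteins, which keep genes on, and of Polycomb proteins, which keep them off with methylation of histone H3 lysine 27. Nsd2 is a methyltransferase that places dimethylation on histone H3 lysine 36, a mark that hinders Polycomb methylation in the test tube, and K36M histone H3.3 blocks lysine 36 methylation.

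A call here means a ratio of 2 RPKM values over 2-fold with an RPKM (reads per kilobase of transcript, scaled to the mapped reads of the library) of at least 1 in at least 1 of the 2 libraries. Intervals are 95% counting intervals of the log2 ratio from the reads recovered from the RPKM, and they cover counting error only. Mapped reads ranged from 12213559 to 24365867 per library, and 3 reads on a transcript of 1 kb are worth an RPKM of 0.123 to 0.246. Between 20931 and 22486 transcripts were above 0 in the adipogenesis and KD libraries, against 23099 and 23935 in the PPARγ WT libraries and 25882 and 25720 in the PPARγ K36M libraries. *Nsd2* had an RPKM of 19.9 and 29.0 in Ctrl cells at D0 and D2 and of 5.85 and 7.01 in KD cells, a log2 ratio of -1.77 and -2.05. In K36M cells it ranged from 17.5 to 30.9, against 16.7 to 24.5 in WT cells. The preadipocyte markers summed to an RPKM of 41.8 to 640 over the libraries, and all 7 were detected in each. The adipocyte markers summed to 15.1 to 3431 in WT and Ctrl cells, 19.6 to 1552 in K36M cells, and 7.55 to 36.3 in KD cells, while *Ucp1*, the thermogenic protein of mature brown fat, stayed at or under 0.194 everywhere. Of the markers of other cells, the macrophage, endothelial, and epithelial lists summed to at most 3.07, 0.934, and 0.914. The myogenic list summed to 3.45 to 9.37, of which *Pax3* was 3.43 to 9.28 and *Myod1*, *Myf5*, *Myog*, and *Pax7* were each under 0.1, and the neuronal and glial list summed to 1.42 to 23.5, highest in Ctrl cells at D0.

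Most Hox genes were expressed in these cells. In a bulk library, fewer cells that express a gene and less RNA of it per cell cannot be told apart. Averaged over the 14 libraries, 30 of the 39 genes (76.9%) had an RPKM of at least 1 and are called active, against 51.5% of all genes, 5 lay between 0.1 and 1, and 4 were under 0.1 and are called silent. The *Hoxb* cluster gave the highest sum, followed by *Hoxc*, then *Hoxa*, then *Hoxd*, in 13 of the 14 libraries, with *Hoxc* above *Hoxb* in KD cells at D0. In WT cells at D0 the sums were 123 for *Hoxb* on chromosome 11, 46.5 for *Hoxc* on chromosome 15, 13.3 for *Hoxa* on chromosome 6, and 6.82 for *Hoxd* on chromosome 2. Over the 14 libraries they ranged from 46.0 to 137, 23.5 to 104, 11.4 to 22.9, and 2.05 to 13.7. All 9 *Hoxc* genes were active, as were 9 of 10 *Hoxb* and 9 of 11 *Hoxa* genes, but only 3 of 9 *Hoxd* genes, *Hoxd4*, *Hoxd8*, and *Hoxd9*. The mean behind this class includes the K36M and KD libraries. In WT and Ctrl cells the active *Hoxa10*, *Hoxa11*, and *Hoxb13* stayed under 1, at most 0.679, 0.250, and 0.457.

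**Figure D1:**
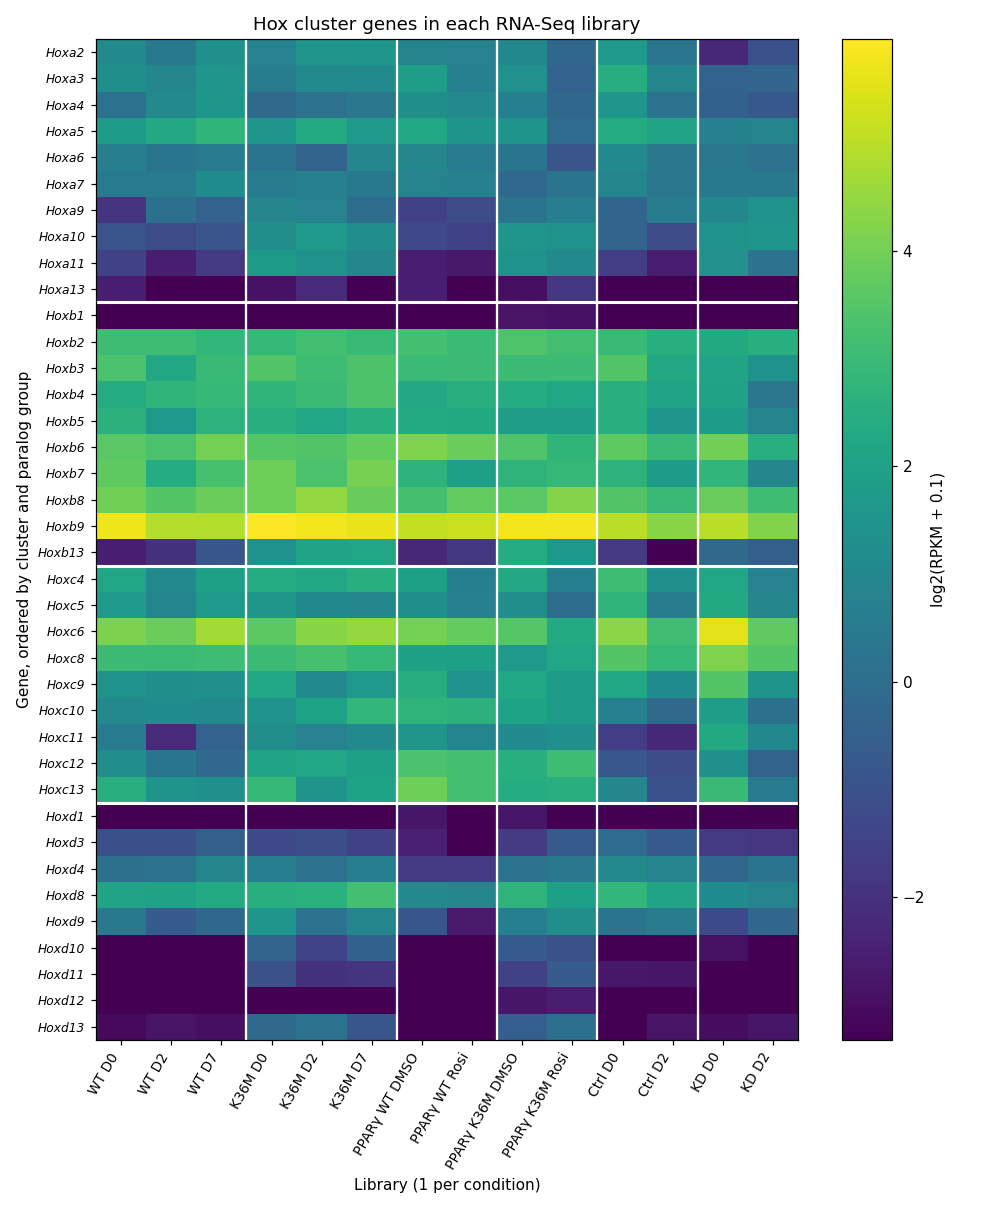
Level of Hox cluster genes (rows, by cluster and paralog group) in each of the 14 libraries (columns), as log2(RPKM + 0.1) by color. *Hoxb9* is the brightest row with an RPKM of 18.5 to 62.4, and *Hoxa10*, *Hoxa11*, *Hoxb13*, and *Hoxd13* are brighter in each K36M column than in each WT column.

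The *Hoxb* cluster occupies 173.9 kb of chromosome 11 from 96055630 to 96229570 in mm9. *Hoxb9*, a gene of thoracic identity, had the highest level of all members in 13 of 14 libraries. Its RPKM was 53.2, 30.8, and 29.3 in WT cells at D0, D2, and D7, 62.4, 53.7, and 50.9 in K36M cells on the same days, 34.3 and 37.1 in PPARγ WT cells with DMSO and Rosi, 54.5 and 56.2 in PPARγ K36M cells, 32.1 and 19.8 in Ctrl cells at D0 and D2, and 31.8 and 18.5 in KD cells. The exception was KD cells at D0, where *Hoxc6* was at 47.2. *Hoxb9* was higher in K36M than in WT cells in each of the 5 matched pairs, but never over 2-fold. The values that follow are RPKM in the same order of libraries. *Hoxb8*, which shares paralog group 8 with *Hoxc8* and *Hoxd8*, had 15.7, 11.1, and 14.4 (WT), 15.0, 21.7, and 13.9 (K36M), 9.20 and 13.05 (PPARγ WT), 11.9 and 19.0 (PPARγ K36M), 10.7 and 7.80 (Ctrl), and 14.1 and 8.26 (KD). *Hoxb7* had 12.5, 5.28, and 9.41 (WT), 15.1, 9.69, and 16.4 (K36M), 6.38 and 3.81 (PPARγ WT), 6.50 and 7.10 (PPARγ K36M), 6.38 and 3.28 (Ctrl), and 6.87 and 1.87 (KD). *Hoxb6* had 11.8, 9.98, and 16.1 (WT), 11.5, 10.9, and 13.5 (K36M), 17.8 and 14.1 (PPARγ WT), 10.6 and 6.69 (PPARγ K36M), 12.6 and 7.62 (Ctrl), and 15.8 and 5.74 (KD). These thoracic members were lower than *Hoxb9* in every library. *Hoxb5* had 6.09, 3.15, and 6.26 (WT), 5.79, 4.42, and 5.79 (K36M), 5.04 and 4.91 (PPARγ WT), 3.53 and 3.54 (PPARγ K36M), 5.66 and 2.83 (Ctrl), and 3.45 and 1.67 (KD). *Hoxb4* was at 5.30, 6.65, and 7.31 (WT), 6.71, 7.96, and 10.2 (K36M), 4.73 and 5.65 (PPARγ WT), 5.28 and 4.56 (PPARγ K36M), 5.82 and 4.22 (Ctrl), and 3.94 and 1.19 (KD). For both the lowest library was KD cells at D2. *Hoxb3*, of the hindbrain and neck, was at 9.89, 4.66, and 7.57 (WT), 10.9, 8.46, and 10.2 (K36M), 7.91 and 8.08 (PPARγ WT), 8.24 and 8.25 (PPARγ K36M), 10.8 and 4.82 (Ctrl), and 4.16 and 2.63 (KD). *Hoxb2*, of the hindbrain, was at 8.44, 8.35, and 7.01 (WT), 7.17, 8.82, and 7.59 (K36M), 9.004 and 7.98 (PPARγ WT), 10.5 and 8.73 (PPARγ K36M), 7.83 and 5.67 (Ctrl), and 4.86 and 5.53 (KD). *Hoxb3* and *Hoxb5* were lower at D2 than at D0 in WT, K36M, Ctrl, and KD cells, while *Hoxb2* and *Hoxb4* were lower in some of them and higher in others. *Hoxb2*, *Hoxb8*, *Hoxb9*, and *Hoxc8* were the 4 active members with no call in any comparison. *Hoxb1*, an early hindbrain gene next to *Hoxb2*, was at 0 in 12 libraries and at 0.0380 and 0.0395 in the other 2, both PPARγ K36M.

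In the *Hoxc* cluster (115.7 kb, chromosome 15 from 102751534 to 102867274), *Hoxc6*, which is used in the forelimb and upper thorax, was the highest member in 13 of 14 libraries. It had an RPKM of 17.3, 14.3, and 25.6 (WT), 12.3, 19.7, and 22.3 (K36M), 16.2 and 13.6 (PPARγ WT), 11.4 and 5.06 (PPARγ K36M), 20.2 and 8.54 (Ctrl), and 47.2 and 12.98 (KD). *Hoxc8*, a thoracic gene, had 8.17, 7.93, and 8.30 (WT), 7.93, 9.40, and 7.33 (K36M), 3.92 and 3.80 (PPARγ WT), 3.14 and 4.40 (PPARγ K36M), 11.1 and 7.23 (Ctrl), and 18.1 and 11.1 (KD). *Hoxc9*, its thoracic neighbor, had 2.61, 2.34, and 2.40 (WT), 4.28, 2.09, and 3.10 (K36M), 5.46 and 2.64 (PPARγ WT), 4.56 and 3.22 (PPARγ K36M), 4.48 and 2.19 (Ctrl), and 11.0 and 2.67 (KD). *Hoxc6* and *Hoxc9* thus peaked in the same library, KD cells at D0. At the anterior end *Hoxc4* had 4.27, 1.98, and 3.75 (WT), 5.15, 4.63, and 5.74 (K36M), 3.73 and 1.49 (PPARγ WT), 4.82 and 1.51 (PPARγ K36M), 8.32 and 2.40 (Ctrl), and 4.37 and 1.66 (KD). *Hoxc5* had 3.05, 1.74, and 3.14 (WT), 2.91, 1.90, and 1.89 (K36M), 2.34 and 1.59 (PPARγ WT), 2.32 and 0.897 (PPARγ K36M), 6.45 and 1.44 (Ctrl), and 4.83 and 1.89 (KD). Both were lower at D2 than at D0 in WT, K36M, Ctrl, and KD cells and lower with Rosi than with DMSO in PPARγ cells. The most posterior genes of this cluster were also on, unlike those of *Hoxa* and *Hoxd*. *Hoxc10*, a lumbar gene, had an RPKM of 1.96, 2.22, and 2.00 (WT), 2.63, 4.05, and 6.93 (K36M), 6.49 and 6.16 (PPARγ WT), 4.03 and 3.26 (PPARγ K36M), 1.53 and 0.830 (Ctrl), and 3.60 and 0.977 (KD). For *Hoxc11* the levels were 1.28, 0.114, and 0.656 (WT), 2.31, 1.66, and 2.06 (K36M), 2.91 and 1.72 (PPARγ WT), 2.11 and 2.42 (PPARγ K36M), 0.221 and 0.108 (Ctrl), and 4.89 and 1.92 (KD). *Hoxc10* passed 1 in some library of each kind of cell, and *Hoxc11* in each kind but Ctrl cells. *Hoxc12* had 2.22, 1.12, and 0.802 (WT), 4.24, 4.36, and 3.79 (K36M), 9.87 and 9.03 (PPARγ WT), 5.79 and 8.43 (PPARγ K36M), 0.480 and 0.353 (Ctrl), and 2.45 and 0.672 (KD). *Hoxc13*, a gene of hair and nail, had 5.71, 2.73, and 2.41 (WT), 7.39, 2.72, and 4.07 (K36M), 15.0 and 9.07 (PPARγ WT), 5.35 and 5.62 (PPARγ K36M), 1.87 and 0.408 (Ctrl), and 7.71 and 1.35 (KD). Of the control libraries, Ctrl cells at D2 were the lowest for each of these 4 genes.

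In the *Hoxa* cluster (chromosome 6) the anterior genes carried the sum in control cells. Groups 1 to 8 summed to 10.8 to 21.2 in the 7 WT and Ctrl libraries, and groups 9 to 13 to 0.652 to 1.79. *Hoxa5*, which patterns the neck and upper thorax and the lung, was the highest *Hoxa* gene in 6 of those 7 libraries. Its RPKM was 3.36, 4.82, and 6.72 (WT), 2.82, 5.06, and 3.10 (K36M), 4.65 and 2.67 (PPARγ WT), 2.69 and 0.842 (PPARγ K36M), 5.12 and 4.18 (Ctrl), and 1.59 and 1.72 (KD). *Hoxa4* had 1.04, 1.95, and 2.95 (WT), 0.824, 0.992, and 1.23 (K36M), 2.38 and 1.98 (PPARγ WT), 1.50 and 0.775 (PPARγ K36M), 2.75 and 1.07 (Ctrl), and 0.638 and 0.482 (KD). *Hoxa3* had 2.35, 1.83, and 2.78 (WT), 1.39, 2.04, and 2.03 (K36M), 3.63 and 1.57 (PPARγ WT), 2.50 and 0.652 (PPARγ K36M), 5.43 and 1.83 (Ctrl), and 0.654 and 0.712 (KD). All 3 were lower with Rosi than with DMSO in PPARγ WT and PPARγ K36M cells. *Hoxa2* had 2.00, 1.25, and 2.41 (WT), 1.62, 2.75, and 2.83 (K36M), 1.67 and 1.65 (PPARγ WT), 1.93 and 0.752 (PPARγ K36M), 3.07 and 1.15 (Ctrl), and 0.102 and 0.404 (KD). *Hoxa2* to *Hoxa5* were lower in both KD libraries than in any WT or Ctrl library, a description with no share of all genes beside it. In the middle of the cluster *Hoxa6* had 1.47, 1.12, and 1.29 (WT), 1.08, 0.685, and 1.87 (K36M), 1.84 and 1.30 (PPARγ WT), 1.12 and 0.452 (PPARγ K36M), 2.03 and 1.21 (Ctrl), and 1.23 and 1.05 (KD). *Hoxa7* had 1.32, 1.29, and 2.19 (WT), 1.39, 1.55, and 1.26 (K36M), 1.67 and 1.58 (PPARγ WT), 0.799 and 1.09 (PPARγ K36M), 1.76 and 1.17 (Ctrl), and 1.24 and 1.25 (KD). *Hoxa13*, a gene of the limb tip and hindgut, was silent, at 0 in 8 libraries and at most 0.181. In the *Hoxd* cluster (96.8 kb, chromosome 2 from 74506367 to 74603200) *Hoxd8* was the highest gene in all 14 libraries, with 1.67 to 8.91. *Hoxd1* and *Hoxd12* were silent, each above 0 in 2 libraries only and at most 0.0494 and 0.0628. Genes of intermediate mean level included *Hoxd3*, *Hoxd10*, *Hoxd11*, and *Hoxd13*, with ranges of 0 to 0.855, 0 to 0.704, 0 to 0.547, and 0 to 1.03.

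Levels of some Hox genes differed between the control cells of the 3 experiments. Over the libraries of WT cells at D0, PPARγ WT cells with DMSO, and Ctrl cells at D0, the highest value was over 2-fold above the lowest for 13 of the 27 Hox genes that reached an RPKM of 1 in any of them, against 38.1% of all genes, so a spread of this size was common among other genes too. The members were *Hoxa3*, *Hoxa4*, *Hoxd4*, *Hoxd8*, *Hoxd9*, and all *Hoxc* genes except *Hoxc6*. *Hoxc12* was at 2.22, 9.87, and 0.480 in these 3 libraries, and *Hoxc13* at 5.71, 15.0, and 1.87. *Hoxd4* was at 0.968, 0.198, and 1.96. Ratios for these genes are therefore given against the matched control, with the range over all 7 control libraries beside them where it matters.

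**Figure D2:**
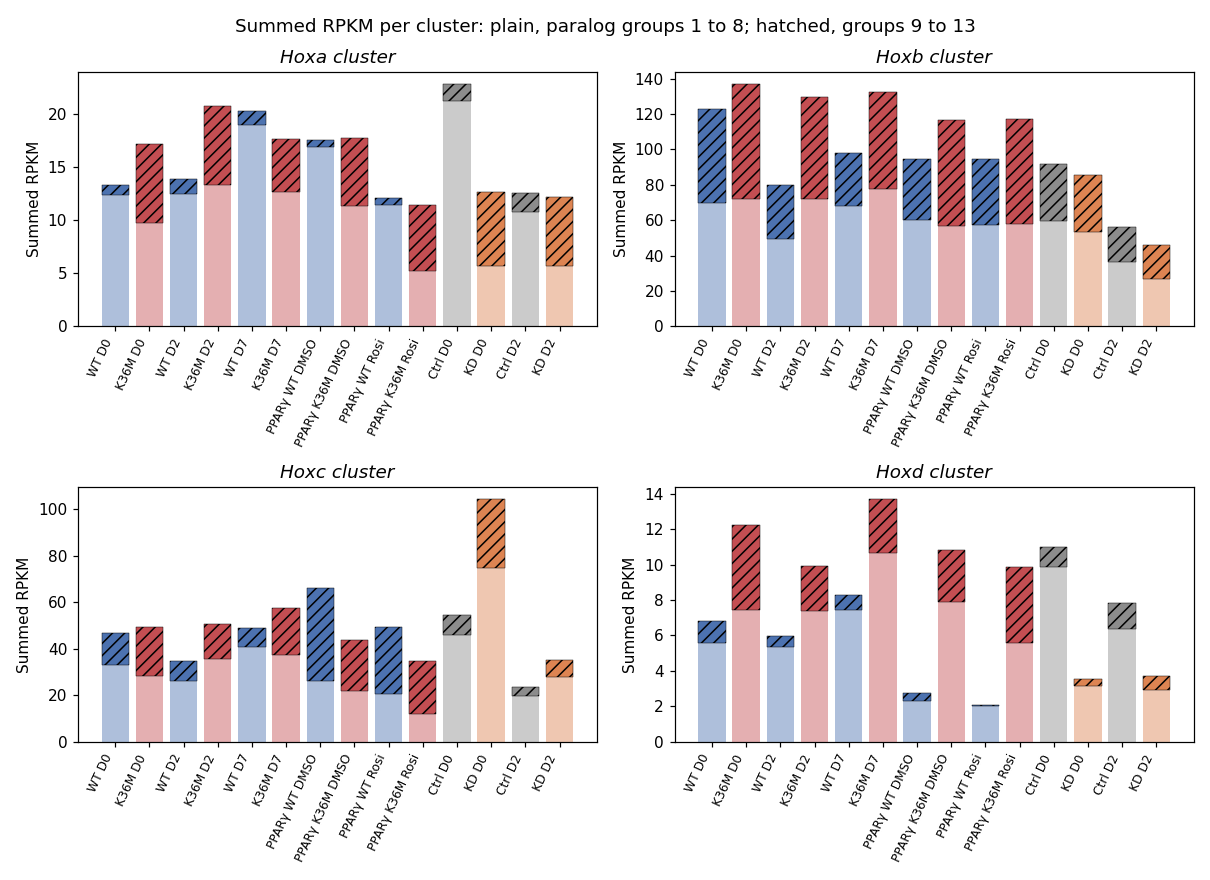
Summed RPKM of each cluster (y axis) in each library (x axis), with paralog groups 1 to 8 plain and groups 9 to 13 hatched; WT is blue, K36M red, Ctrl gray, and KD orange. The hatched part of *Hoxa* is 4.96 to 7.40 in the K36M and KD libraries and 0.652 to 1.79 in the WT and Ctrl libraries.

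The first question was how blocking lysine 36 methylation with K36M bore on active and silent members. Several posterior genes that were low or silent in WT cells were higher in K36M cells, namely *Hoxa9*, *Hoxa10*, *Hoxa11*, *Hoxb13*, *Hoxd10*, *Hoxd11*, and *Hoxd13*. They were picked with these values known, so the list is a description. The silent posterior genes *Hoxa13* and *Hoxd12* had few reads in either kind of cell. At D0, 5 of the 30 members over the floor were called higher, *Hoxa9*, *Hoxa10*, *Hoxa11*, *Hoxb13*, and *Hoxd9*, and 0 lower. Of all genes over the floor, 5.02% were called higher and 6.36% lower. Of the 5, all but *Hoxd9* were under 1 RPKM in WT cells at D0. Such members pass the floor only through K36M cells and could only be called higher. This also holds for part of the calls in the pairs below, so these counts are a description. At D2, 8 of 31 were higher and 0 lower (all genes, 11.2% and 4.37%). At D7, 7 of 29 were higher and 2 lower (all genes, 11.7% and 8.46%). The median log2 ratio of the members over the floor was 0.25, 0.60, and 0.42 at D0, D2, and D7, beside 0.09, 0.07, and 0.12 over all genes over the floor. With ectopic PPARγ, 7 of 31 were higher and 2 lower with DMSO (all genes, 5.09% and 3.11%), and 7 of 30 were higher and 7 lower with Rosi (all genes, 7.02% and 12.1%). The members' median log2 ratio was then -0.02 and 0.02, beside -0.02 and -0.11 over all genes. Adipocyte markers moved with these comparisons, summing to 40.2, 3431, and 3311 in WT and 19.6, 1552, and 185 in K36M cells at D0, D2, and D7. The preadipocyte markers summed to 337, 86.8, and 312 in WT and 143, 154, and 639.9 in K36M cells on the same days, and to 173 and 157 in PPARγ WT and 143 and 78.8 in PPARγ K36M cells with DMSO and Rosi. The part of both in the differences was not tested.

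*Hoxa10* (chromosome 6 from 52181196 to 52190853), which patterns the uterus and the upper leg, had an RPKM of 0.433, 0.339, 0.452, 0.319, and 0.252 in WT cells at D0, D2, and D7 and in PPARγ WT cells with DMSO and Rosi. In the matching K36M libraries it had 2.31, 3.07, 2.24, 2.73, and 2.56, so the 5 K36M values all lie above the 5 WT values. The log2 ratios were 2.41, 3.18, 2.31, 3.10, and 3.35, with an interval of 1.71 to 3.19 at D0. *Hoxa11* (chromosome 6 from 52192107 to 52196213), a gene of the forearm and shank and of the uterus, was nearly silent in WT cells, with 0.250, 0.0700, 0.201, 0.0615, and 0.0539 in the same order. Its level was 3.25, 2.56, 1.86, 2.54, and 2.01 in K36M cells, again with no overlap. The log2 ratios ranged from 3.21 (interval 1.99 to 4.72) at D7 to 5.37 (interval 3.79 to 7.67) with DMSO, where the WT value rests on 3 reads. *Hoxa9* (chromosome 6 from 52173099 to 52181088), known from blood stem cells and leukemia, had 0.165, 0.968, 0.661, 0.243, and 0.346 in WT and 1.77, 1.65, 0.865, 1.10, and 1.46 in K36M cells. The K36M value was the higher in each pair and called at D0, with DMSO, and with Rosi, but the groups overlap, since K36M cells at D7 lay below WT cells at D2.

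*Hoxb13* (chromosome 11 from 96055630 to 96058761), the tail and prostate gene that sits apart from the rest of its cluster, had an RPKM of 0.0712, 0.159, 0.457, 0.105, and 0.184 in WT cells. In K36M cells it had 2.61, 4.19, 4.30, 5.35, and 3.01, each above all 5 WT values. With DMSO the log2 ratio was 5.67 (interval 4.10 to 7.96), and at D7 it was 3.23 (interval 2.18 to 4.50). *Hoxd13* (chromosome 2 from 74506367 to 74509656), which shapes the digits, had 0.0188, 0.0422, 0.0302, 0, and 0 in WT and 0.832, 1.03, 0.462, 0.579, and 0.955 in K36M cells. Its reads summed to 4 over the 5 WT libraries and to 152 over the 5 K36M libraries, which is 42.9-fold higher per mapped read with a counting interval of 16.4 to 159. *Hoxd10* (chromosome 2 from 74529147 to 74533163), a gene of the hind limb and lumbar cord, was at 0 in all 5 WT libraries and at 0.704, 0.268, 0.641, 0.551, and 0.397 in K36M cells. It had 78 reads in the K36M libraries against 0. Counting 3 reads for the WT group gives a 29.3-fold difference, and the lower counting bound is 23.3. *Hoxd11*, the partner of *Hoxa11* in the forearm, was likewise at 0 in WT cells and at 0.398, 0.158, 0.162, 0.244, and 0.547 in K36M cells. Its 25 reads give a 9.40-fold difference when 3 reads are counted for the WT group, with a lower counting bound of 7.10. *Hoxd10* and *Hoxd11* stayed under the floor of 1 RPKM and so are in none of the counts of calls, and *Hoxd13* was called at D2 only.

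Judged on the WT libraries alone, 7 members had a mean RPKM under 0.1, namely *Hoxd10*, *Hoxd11*, and *Hoxd13*, described above, and *Hoxa13*, *Hoxb1*, *Hoxd1*, and *Hoxd12*. The latter 4 had few reads in either kind of cell. *Hoxa13* had 4 reads in the WT and 7 in the K36M libraries, *Hoxd1* had 1 in each, and *Hoxb1* and *Hoxd12* had 0 in WT cells against 3 and 5 in K36M cells, all of them in the PPARγ libraries. Over the 32 members with an RPKM of at least 1 in any of the 10 libraries, 4 had every K36M value above every WT value, *Hoxa10*, *Hoxa11*, *Hoxb13*, and *Hoxd13*, and 0 had every K36M value below. Of all genes, 1.24% and 0.588% did so. These 4 reached the floor only through K36M libraries, so the count describes them and is not support for a rise. Within the 3 adipogenesis pairs alone, 9 of 31 members were separated upward, with *Hoxc4*, *Hoxc10*, *Hoxc11*, *Hoxc12*, and *Hoxd8* added, and 0 downward. With these fewer libraries 6.82% of all genes were separated upward and 2.51% downward. The 9 include *Hoxa10*, *Hoxa11*, *Hoxb13*, and *Hoxd13*, which here too reached the floor only through K36M libraries. This count is therefore also a description and not support for a rise.

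**Figure D3:**
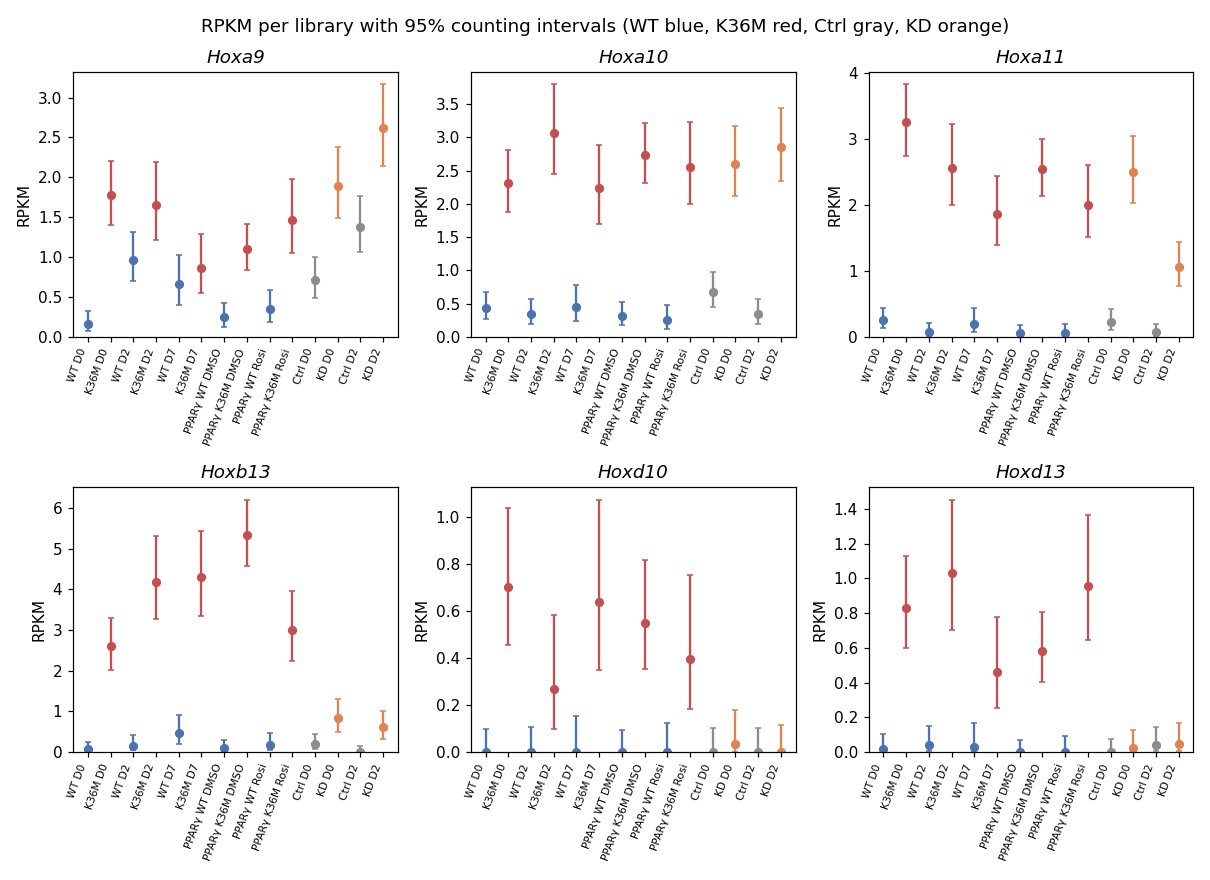
RPKM (y axis) of 6 posterior Hox genes in each library (x axis), with exact Poisson 95% intervals of the reads, which cover counting error only. For *Hoxa10*, *Hoxa11*, and *Hoxb13* the K36M points lie above all WT and Ctrl points, and the KD points of *Hoxd10* and *Hoxd13* lie near 0.

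The sequence before the start sites of members that moved is shown for *Hoxa9*, *Hoxa10*, and *Hoxd13*, which were higher in K36M cells, and for *Hoxa5*, which was lower in KD cells on both days. Unmethylated CG-rich promoters are where Polycomb and trithorax complexes gather, so each CG dinucleotide is in capitals. Each run is the 250 bases before a RefSeq start site, 5′ to 3′ on the strand of the gene, with mm9 coordinates found by matching the sequence to that genome. *Hoxa10* has 2 annotated starts. The window of *Hoxa11* lies inside annotated exons and is not printed.
Hoxa5 promoter (chr6:52154587-52154836, minus strand): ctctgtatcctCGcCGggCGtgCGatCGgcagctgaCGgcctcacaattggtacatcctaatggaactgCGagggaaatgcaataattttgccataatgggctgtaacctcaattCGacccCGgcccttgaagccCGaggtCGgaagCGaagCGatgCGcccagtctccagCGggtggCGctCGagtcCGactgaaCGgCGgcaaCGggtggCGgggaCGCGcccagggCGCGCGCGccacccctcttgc
Hoxa9 promoter (chr6:52177370-52177619, minus strand): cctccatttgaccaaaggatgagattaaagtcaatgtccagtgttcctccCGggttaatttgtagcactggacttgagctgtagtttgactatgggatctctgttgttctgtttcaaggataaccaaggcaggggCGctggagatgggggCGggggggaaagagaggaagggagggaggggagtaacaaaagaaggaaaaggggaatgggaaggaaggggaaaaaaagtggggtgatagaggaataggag
Hoxa10 upstream promoter (chr6:52190854-52191103, minus strand): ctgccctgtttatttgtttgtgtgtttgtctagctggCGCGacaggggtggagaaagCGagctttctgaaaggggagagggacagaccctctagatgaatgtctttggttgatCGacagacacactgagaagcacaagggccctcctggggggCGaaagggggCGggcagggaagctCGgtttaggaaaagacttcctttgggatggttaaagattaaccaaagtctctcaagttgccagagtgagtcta
Hoxa10 downstream promoter (chr6:52184939-52185188, minus strand): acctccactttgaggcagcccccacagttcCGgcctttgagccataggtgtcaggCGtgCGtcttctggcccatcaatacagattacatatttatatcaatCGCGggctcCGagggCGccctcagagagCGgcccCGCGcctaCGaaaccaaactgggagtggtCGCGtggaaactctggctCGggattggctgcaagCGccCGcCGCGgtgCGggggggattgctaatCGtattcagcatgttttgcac
Hoxd13 promoter (chr2:74506032-74506281, plus strand): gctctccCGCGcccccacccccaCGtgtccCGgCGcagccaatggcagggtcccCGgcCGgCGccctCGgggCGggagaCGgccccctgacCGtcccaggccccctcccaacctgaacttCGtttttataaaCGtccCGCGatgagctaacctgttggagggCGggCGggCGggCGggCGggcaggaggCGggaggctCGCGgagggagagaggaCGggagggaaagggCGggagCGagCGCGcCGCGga

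The number of CG dinucleotides varied among these 4 chosen genes, and its relation to the direction of change was not tested. *Hoxd13* has 31 CG dinucleotides and *Hoxa5*, which moved the other way in KD cells, has 28, while *Hoxa9* has 3 and the windows of *Hoxa10* have 7 and 20. Promoter windows from RefSeq (GRCm38.p6) were matched for 22 of the 39 members, 24 windows in all, with a median of 12.5 CG dinucleotides, against 6 over all 32851 windows. The silent *Hoxa13* had the most, 35. The letters TGATTNAT, a motif bound by Hox proteins with their Pbx partners, were searched on both strands and found in 2 of the 24 windows (8.33%), those of *Hoxa2* and of 1 start of *Hoxd11*, against 2.82% of all windows.

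Some active members also differed between K36M and WT cells in single pairs. At D2, *Hoxa2* was at 1.25 in WT and 2.75 in K36M cells (log2 ratio 1.14, interval 0.54 to 1.76), and *Hoxc4* at 1.98 and 4.63 (log2 ratio 1.23, interval 0.79 to 1.66). *Hoxc11* and *Hoxc12*, posterior genes next to *Hoxc13*, were called higher at D2 and D7. *Hoxc11* went from 0.114 to 1.66 at D2 and from 0.656 to 2.06 at D7, and *Hoxc12* from 1.12 to 4.36 and from 0.802 to 3.79. These K36M values lie inside the range of the 7 control libraries, which was 0.108 to 2.91 for *Hoxc11* and 0.353 to 9.87 for *Hoxc12*. With PPARγ neither gene was called, and *Hoxc13* was lower in K36M cells with DMSO, at 5.35 against 15.0 (log2 ratio -1.49, interval -1.68 to -1.30). *Hoxc10*, known from lumbar segments and white fat, was called at D7, at 6.93 against 2.00 (log2 ratio 1.79, interval 1.33 to 2.28).

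Of the *Hoxd* genes in the middle of the cluster, *Hoxd4* and *Hoxd8* were called higher in K36M cells only with ectopic PPARγ. The PPARγ WT libraries were low for both. *Hoxd9* was called at D0 and D7 as well. *Hoxd8*, a thoracic gene, was at 4.20, 3.97, 5.06, 1.97, and 1.78 in WT cells (D0, D2, D7, DMSO, and Rosi) and at 5.66, 6.00, 8.91, 6.54, and 3.83 in K36M cells. It was called with DMSO (log2 ratio 1.73, interval 1.32 to 2.16) and with Rosi (log2 ratio 1.10, interval 0.53 to 1.69). *Hoxd4*, an anterior gene of the hindbrain and neck, was at 0.968, 1.00, 1.79, 0.198, and 0.213 in WT, against 1.48, 1.03, 1.47, 1.07, and 1.20 in K36M cells, and was called in the same 2 pairs. *Hoxd9*, used in the hind limb, was at 1.25, 0.548, 0.787, 0.460, and 0.0576 in WT, against 2.85, 1.06, 1.79, 1.50, and 2.33 in K36M cells, and was called in all pairs but D2. The PPARγ K36M libraries hold more transcripts above 0 than the PPARγ WT libraries, as given above, and the part of this in the differences was not tested. Over the 7 control libraries the range was 0.198 to 1.96 for *Hoxd4*, 1.78 to 7.07 for *Hoxd8*, and 0.0576 to 1.39 for *Hoxd9*. The called K36M values of *Hoxd4* and *Hoxd8* lie inside these ranges, and those of *Hoxd9* lie above. The *Hoxd* sum was 9.84 to 13.7 in K36M and 2.05 to 8.26 in WT cells. In Ctrl cells it was 11.0 and 7.83 at D0 and D2, so Ctrl cells at D0 lay inside the K36M range.

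Some anterior *Hoxa* genes were called lower in part of the K36M libraries. At D7, *Hoxa4* was at 2.95 in WT and 1.23 in K36M cells (log2 ratio -1.26, interval -2.02 to -0.54), and *Hoxa5* at 6.72 and 3.10 (log2 ratio -1.12, interval -1.54 to -0.71). These were 2 of 29 members, near the share of all genes called lower (8.46%). Both K36M values lie inside the range of the 7 control libraries, 1.04 to 2.95 for *Hoxa4* and 2.67 to 6.72 for *Hoxa5*. With Rosi 7 of 30 members were called lower in K36M cells (all genes, 12.1%). Among them were *Hoxa2* to *Hoxa6*, with log2 ratios between -1.14 and -1.67. Their RPKM was 1.65 and 0.752 for *Hoxa2*, 1.57 and 0.652 for *Hoxa3*, 1.98 and 0.775 for *Hoxa4*, 2.67 and 0.842 for *Hoxa5*, and 1.30 and 0.452 for *Hoxa6* in WT and K36M cells. The *Hoxa6* value rests on 4 reads in K36M cells and its interval, -3.57 to 0.13, includes 0. *Hoxb6* and *Hoxc6*, both of paralog group 6, were also lower with Rosi. *Hoxb6* was at 14.1 in WT and 6.69 in K36M cells, and *Hoxc6* at 13.6 and 5.06. *Hoxa7*, a thoracic gene, was called lower with DMSO only, at 1.67 and 0.799.

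The second question was what depletion of Nsd2, the methyltransferase, did to the same genes. In KD cells at D0, *Hoxa2* to *Hoxa5*, *Hoxb3*, *Hoxd4*, *Hoxd8*, and *Hoxd9* were lower, and *Hoxa9* to *Hoxa11* and 6 of the 9 *Hoxc* genes were higher. Of the 30 members over the floor, 9 were called higher (all genes, 6.61%) and 9 lower (all genes, 10.8%). At D2, 4 of 27 were higher (all genes, 4.88%) and 6 lower (all genes, 9.57%). The members' median log2 ratio was -0.47 at D0 and -0.20 at D2, beside 0.00 and -0.05 over all genes. Adipocyte markers summed to 15.1 and 1311 in Ctrl and to 7.55 and 36.3 in KD cells at D0 and D2. The neuronal and glial list, nearly all of it *Tubb3* with *Sox10* near 0, summed to 23.5 and 2.67 in Ctrl and to 2.77 and 1.83 in KD cells. The preadipocyte markers summed to 201 and 59.1 in Ctrl and to 231 and 41.8 in KD cells, and 2 of them moved in opposite directions at D0, *Pdgfra* from 22.9 to 1.51 and *Dlk1* from 38.1 to 171. The part of the 3 lists in the differences was not tested.

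*Hoxa2*, which patterns the second pharyngeal arch, had an RPKM of 3.07 and 1.15 in Ctrl cells at D0 and D2 and 0.102 and 0.404 in KD cells. The D0 difference was the largest fall of any member over the floor (log2 ratio -4.91, interval -7.21 to -3.32), from 102 reads to 3. *Hoxa3*, needed for the thymus and parathyroid, had 5.43 and 1.83 in Ctrl and 0.654 and 0.712 in KD cells, with log2 ratios of -3.05 at D0 and -1.36 at D2. *Hoxa4* had 2.75 and 1.07 in Ctrl cells, against 0.638 and 0.482 in KD cells. *Hoxa5* had 5.12 and 4.18, against 1.59 and 1.72. Both were called lower on both days. The KD values of *Hoxa2*, *Hoxa3*, *Hoxa4*, and *Hoxa5* on both days lie below all 7 control libraries. The share of all genes that lie so was not determined, so this is a description. *Hoxa6* and *Hoxa7*, next along the cluster, were not called, at 2.03 and 1.21 in Ctrl and 1.23 and 1.05 in KD cells, and at 1.76 and 1.17, against 1.24 and 1.25, respectively.

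Past *Hoxa7* the direction changed. *Hoxa9* had 0.713 and 1.38 in Ctrl and 1.89 and 2.62 in KD cells and was called at D0 (log2 ratio 1.41, interval 0.79 to 2.05). *Hoxa10* had 0.679 and 0.344 in Ctrl, against 2.60 and 2.86 in KD cells, a log2 ratio of 1.94 at D0 and 3.05 at D2. *Hoxa11* had 0.226 and 0.0663 in Ctrl, against 2.51 and 1.06 in KD cells, a log2 ratio of 3.47 (interval 2.53 to 4.58) at D0. All 4 KD values of *Hoxa10* and *Hoxa11* lie above the 7 control libraries. Both genes passed the floor only through K36M or KD libraries, and the share of all genes was not determined. This too is a description. The *Hoxa* sum over groups 9 to 13 was 7.00 and 6.53 in KD cells, against 1.62 and 1.79 in Ctrl cells, while the sum over groups 1 to 8 was 5.71 and 5.66 against 21.2 and 10.8.

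**Figure D4:**
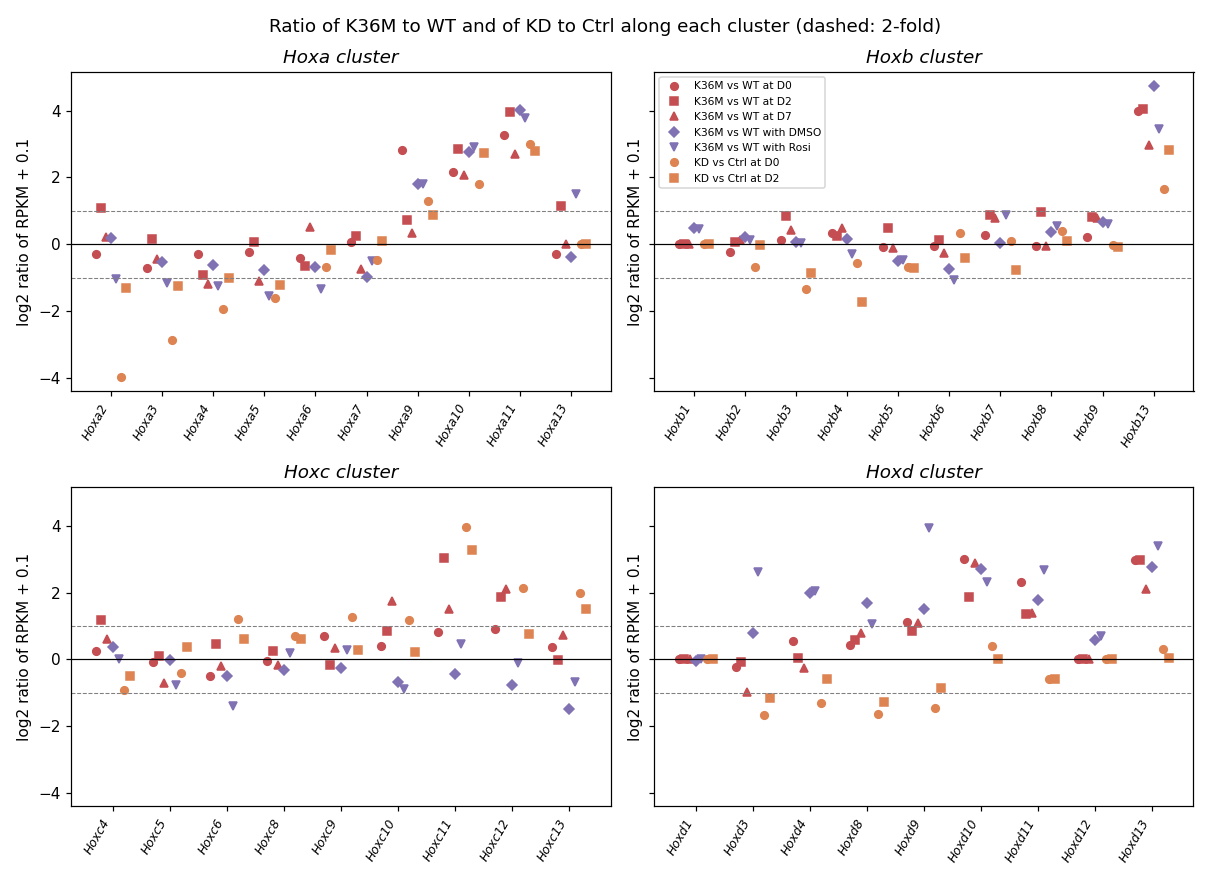
Log2 ratio of RPKM + 0.1 (y axis) of K36M to WT and of KD to Ctrl for Hox genes, ordered by paralog group within each cluster (x axis), with dashed lines at 2-fold; K36M pairs are red in adipogenesis and purple with PPARγ, and KD pairs are orange. In the *Hoxa* panel the KD points at *Hoxa2* to *Hoxa5* lie below 0 and those at *Hoxa9* to *Hoxa11* above it, and the K36M points at *Hoxa10* and *Hoxa11* lie above 2.

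The *Hoxc* cluster was higher in KD cells at D0, at a sum of 104 against 54.6, and 6 of its 9 genes were called. *Hoxc6* went from 20.2 to 47.2 (log2 ratio 1.23, interval 1.09 to 1.37) and *Hoxc9*, a thoracic gene, from 4.48 to 11.0. Both KD values lie above the other 13 libraries. *Hoxc10* went from 1.53 to 3.60, *Hoxc11* from 0.221 to 4.89 (log2 ratio 4.47, interval 3.05 to 6.38), *Hoxc12* from 0.480 to 2.45, and *Hoxc13* from 1.87 to 7.71. For *Hoxc10*, *Hoxc12*, and *Hoxc13* the KD value lies inside the range of the 7 control libraries, 0.830 to 6.49, 0.353 to 9.87, and 0.408 to 15.0, and the Ctrl libraries were the lowest of the controls. At D2 the *Hoxc* sum was 35.2 against 23.5, and only *Hoxc11* (0.108 to 1.92) and *Hoxc13* (0.408 to 1.35) were called. *Hoxc4* and *Hoxc5*, the anterior end, were not called, at 8.32 and 2.40 in Ctrl and 4.37 and 1.66 in KD cells, and at 6.45 and 1.44, against 4.83 and 1.89, respectively.

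**Figure D5:**
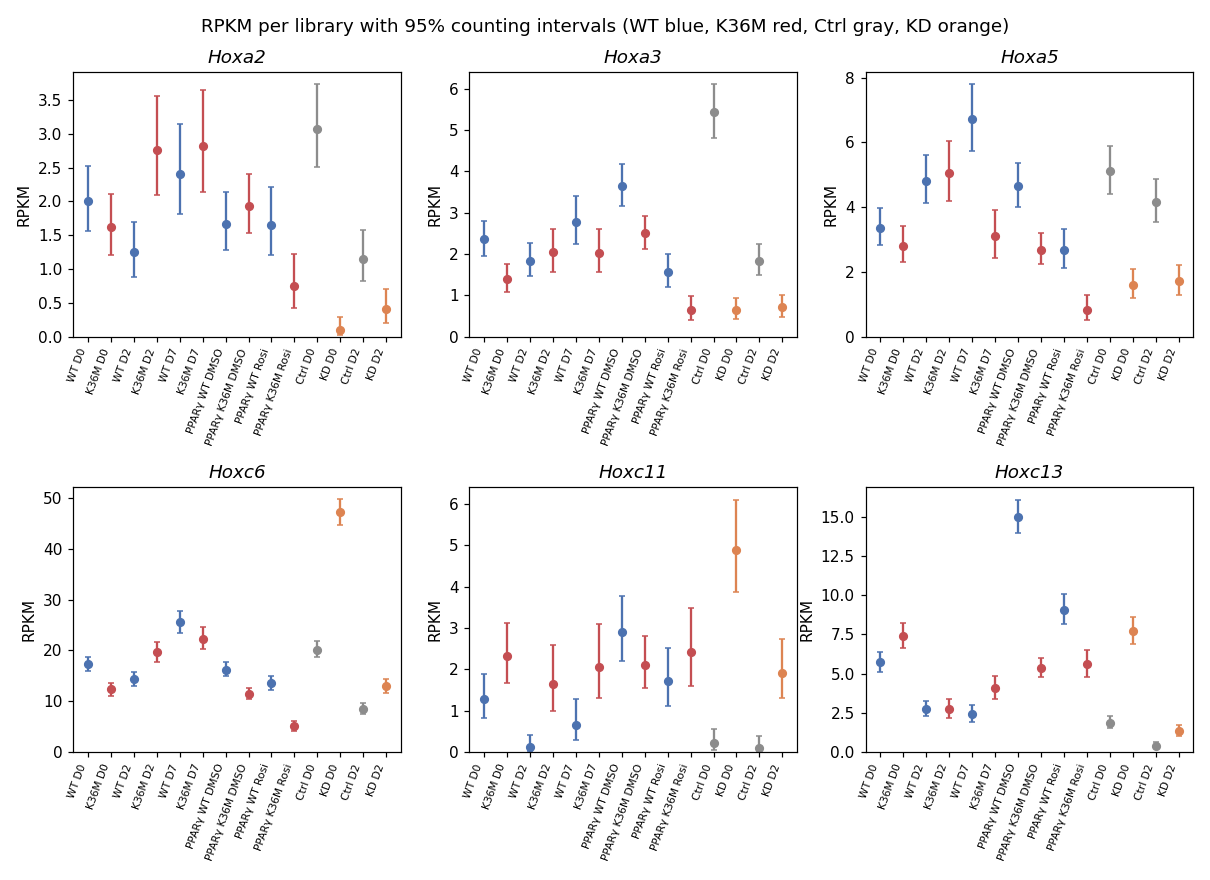
RPKM (y axis) of 3 anterior *Hoxa* genes and 3 *Hoxc* genes in each library (x axis), with exact Poisson 95% intervals of the reads. *Hoxa2* in KD cells at D0 is at 0.102, the lowest of the 14 libraries, and *Hoxc6* in the same library at 47.2, the highest.

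In the *Hoxb* cluster few genes were called in KD cells. *Hoxb3* went from 10.8 to 4.16 at D0 (log2 ratio -1.37, interval -1.59 to -1.16), and *Hoxb4*, known from blood stem cells, from 4.22 to 1.19 at D2 (log2 ratio -1.82, interval -2.28 to -1.39). *Hoxb13* was at 0.193 and 0 in Ctrl and 0.830 and 0.604 in KD cells, higher on both days but under the floor of 1 RPKM. Of the *Hoxd* genes, *Hoxd8* had 7.07 and 4.15 in Ctrl and 2.22 and 1.67 in KD cells and was called lower on both days. *Hoxd4* had 1.96 and 1.69 in Ctrl, against 0.740 and 1.08 in KD cells, and *Hoxd9* had 1.08 and 1.39, against 0.328 and 0.728. Both were called at D0. *Hoxd10* had 0 reads in Ctrl and 1 in KD cells, *Hoxd11* 2 and 0, and *Hoxd13* 2 and 3.

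Set side by side, K36M and KD cells shared a direction on *Hoxa10*, *Hoxa11*, and *Hoxb13*, but not on *Hoxd8* and *Hoxd9*. *Hoxa4* and *Hoxa5* were called lower in KD cells on both days and in K36M cells at D7 and with Rosi, but not in the other K36M libraries. Every one of the 7 K36M and KD values lies above all 7 WT and Ctrl values for 3 of 32 members over the floor, *Hoxa10*, *Hoxa11*, and *Hoxb13*, and below them for 0. Of all genes, 0.155% lay above and 0.155% below. The 3 passed the floor only through K36M or KD libraries, so this count too is a description. *Hoxd10* and *Hoxd13* were higher in K36M cells and near 0 in KD cells, at most 0.0456. *Hoxd8* and *Hoxd9* were called higher in K36M cells with DMSO, and lower in KD cells at D0, with log2 ratios of 1.73 and -1.67 for *Hoxd8*, and of 1.71 and -1.73 for *Hoxd9*. *Hoxa2* had a log2 ratio of -0.31 for K36M and -4.91 for KD at D0. Whether the 2 perturbations differ was not tested, and their control libraries are different ones. Over the 39 genes, Pearson's r of log2(RPKM + 0.1) between libraries was 0.90 to 0.98 among WT cells, 0.91 to 0.97 among K36M cells, 0.76 to 0.89 between WT and K36M cells, 0.77 to 0.85 between Ctrl and KD cells, 0.82 to 0.90 between K36M and KD cells, and 0.80 to 0.98 between WT and Ctrl cells. This is a description across genes, which are not independent.

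The third question was how the clusters moved during adipogenesis. From D0 to D2 all calls were lower, in WT, K36M, Ctrl, and KD cells. In K36M cells 3 of 30 members were lower, near the share of all genes (11.2%). The 6 of 26 in WT cells were also not far from the share there (17.3%). *Hoxa9* went up in WT cells, from 0.165 to 0.968, but under the floor of 1 RPKM. In WT cells 6 of 26 members were called lower, against 17.3% of all genes, and 0 higher, against 9.38%. These were *Hoxb3* (9.89 and 4.66), *Hoxb7* (12.5 and 5.28), *Hoxc4* (4.27 and 1.98), *Hoxc11* (1.28 and 0.114), *Hoxc13* (5.71 and 2.73), and *Hoxd9* (1.25 and 0.548). In Ctrl cells 11 of 26 were lower (all genes, 16.1%) and 0 higher (all genes, 11.3%), with *Hoxb3*, *Hoxc4*, and *Hoxc13* shared with WT cells. *Hoxc5* fell the most of those above 5 at D0, from 6.45 to 1.44 (log2 ratio -2.17, interval -2.54 to -1.81). *Hoxb5* went from 5.66 to 2.83, just past 2-fold, and in WT cells from 6.09 to 3.15, just short of it. The members' median log2 ratio was -0.38 in WT and -0.83 in Ctrl cells, beside -0.01 and 0.07 over all genes.

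In K36M cells 3 of 30 members over the floor were called lower from D0 to D2 (all genes, 11.2%) and 0 higher (all genes, 10.2%). The 3 were *Hoxc9*, *Hoxc13*, and *Hoxd9*. In KD cells 13 of 25 were lower (all genes, 16.8%) and 0 higher (all genes, 11.8%), among them *Hoxc6* (47.2 and 12.98), *Hoxc9* (11.0 and 2.67), *Hoxb6* (15.8 and 5.74), and *Hoxb7* (6.87 and 1.87). The sum over all 4 clusters was 189.6, 134, and 175 in WT cells at D0, D2, and D7, 216, 211, and 221 in K36M cells, 181 and 99.9 in Ctrl cells at D0 and D2, and 206 and 97.0 in KD cells. From D2 to D7 in WT cells 0 of 24 members were called in either direction, against 15.7% of all genes higher and 5.08% lower. The members' median was 0.54, beside 0.04 over all genes, so most moved up by less than 2-fold. *Hoxb7* went from 5.28 to 9.41 and *Hoxc6* from 14.3 to 25.6. In K36M cells 1 of 31 members was called higher from D2 to D7 (all genes, 15.7%) and 1 lower (all genes, 7.02%). *Hoxa6* went up from 0.685 (6 reads) to 1.87, and *Hoxd13* down from 1.03 to 0.462. The comparisons of days within a line share libraries with those of K36M and KD, and their ratios are given side by side only.

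A few members were lower with Rosi in PPARγ cells and none was higher past 2-fold. The adipocyte markers of WT cells summed to 120 under DMSO and 2921 under Rosi, and those of K36M cells to 72.6 and 1192. In WT cells 3 of 25 were lower with Rosi than with DMSO (all genes, 5.05%) and 0 higher (all genes, 9.96%), with a median log2 ratio of -0.26 over the members and 0.06 over all genes. They were *Hoxa3* (3.63 and 1.57, log2 ratio -1.21, interval -1.64 to -0.80), *Hoxc4* (3.73 and 1.49, log2 ratio -1.32, interval -1.81 to -0.85), and *Hoxc9* (5.46 and 2.64, log2 ratio -1.05, interval -1.45 to -0.66). In K36M cells 7 of 30 were lower (all genes, 8.85%) and 0 higher (all genes, 7.9%). The 7 were *Hoxa2*, *Hoxa3*, *Hoxa5*, *Hoxa6*, *Hoxc4*, *Hoxc5*, and *Hoxc6*. *Hoxa3* went from 2.50 to 0.652 (log2 ratio -1.94, interval -2.67 to -1.28) and *Hoxc5* from 2.32 to 0.897 (log2 ratio -1.37, interval -1.97 to -0.80). Whether the response to Rosi differs between WT and K36M cells was not tested.

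Reads of overlapping transcripts limit some of these values. In the GENCODE M1 annotation of mm9, 18 of the 39 members share exon bases with another gene. *Hoxa11* shares 1038 of 2689 exon bases (38.6%) with its opposite-strand gene, and since the strand setting of the counting is not given in the sources used here, reads of the 2 cannot be told apart. *Hoxb2* and *Hoxb3* share 49.4% and 37.9% of their exon bases, in each case with the opposite-strand *Hoxb3os*. *Hoxd4* shares 67.4% with *Hoxd3* on the same strand, and *Hoxb8* 40.4% with *Hoxb7*. *Hoxa10*, *Hoxb13*, *Hoxd13*, *Hoxa4*, and *Hoxa5* share none. *Hoxa10* and *Hoxb3* have 2 RefSeq transcripts each, and taking the longer of them changed no count of calls.

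Of the 16 protein-coding genes that flank the clusters, 2 on each side, 14 had a value. In each K36M and KD comparison 10 were over the floor, with 0 called higher and at most 1 lower. Of all genes, 4.88% to 11.7% were higher and 3.11% to 12.1% lower. So few flanking genes cannot show whether they differ from the clusters. *Evx1* beside *Hoxa13* and *Evx2* beside *Hoxd13*, homeobox genes of the same stretch, were at or under 0.0862 in all libraries, K36M included. *Skap2*, on the other side of the *Hoxa* cluster, was at 9.59 to 12.7 in WT and 7.11 to 15.9 in K36M cells. *Mtx2* next to *Hoxd1* was at 15.5 to 21.1 and 13.2 to 17.6. In K36M or KD comparisons *Hibadh*, *Snx10*, and *Lnpk* were called, all lower. *Hibadh*, a metabolic enzyme beyond *Evx1*, was at 43.3 and 14.3 in WT and K36M cells at D7, *Snx10* at 31.5 and 15.1 at D2, and *Lnpk* at 4.63 and 1.94 in Ctrl and KD cells at D0.

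Regulators and partners of Hox genes were read from lists. Over the K36M and KD comparisons, 4.88% to 11.7% of all genes were called higher and 3.11% to 12.1% lower. The lists are short, so their counts are a description. Of the trithorax list, 10 of 11 genes had a value and 0 were called in any K36M or KD comparison. The gene without a value was *Kmt2a* (Mll1), so nothing is known of it here. Of the 21 Polycomb genes, all over the floor, 1 was called higher in K36M cells at D0, 2 were lower at D2, 1 was higher and 2 were lower at D7, 1 was lower with Rosi, and 0 were called with DMSO. In KD cells 2 were higher and 1 lower at D0, and 1 was higher at D2. The core subunits *Ezh2*, *Suz12*, and *Eed* were never among them. *Jarid2*, an accessory subunit of the H3K27 methyltransferase complex, was at 2.56, 15.0, 9.67, 1.60, and 3.87 in WT cells (D0, D2, D7, DMSO, and Rosi) and at 1.69, 3.90, 1.96, 1.41, and 0.975 in K36M cells, lower at D2, D7, and with Rosi. It was higher in KD cells at D0, at 2.07 and 4.49 in Ctrl and KD cells. At D7, *Phf1*, another accessory subunit, was at 5.07 and 14.5 in WT and K36M cells.

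Of the 9 TALE cofactors, the homeodomain partners that bind DNA with Hox proteins, 1 was called lower at D0 and 3 higher on each of D2 and D7 in K36M cells, and 0 with DMSO, with Rosi, or in KD cells. *Pknox2* was at 13.6 and 3.27 in WT and K36M cells at D0, *Meis3* at 1.82 and 4.21 at D2, and *Pbx4* at 0.279 and 1.40 at D7. Of 30 positional homeobox and T-box genes outside the clusters, 17 to 19 were over the floor. In the K36M comparisons at D0, D2, and D7 and with DMSO and Rosi, 1, 5, 4, 2, and 1 were higher. In the same order 5, 1, 1, 3, and 4 were lower. The shares of all genes were 5.02%, 11.2%, 11.7%, 5.09%, and 7.02% higher. They were 6.36%, 4.37%, 8.46%, 3.11%, and 12.1% lower. In KD cells 2 were higher and 9 lower at D0 (all genes, 6.61% and 10.8%). At D2, 2 were higher and 4 lower (all genes, 4.88% and 9.57%). *Tbx5*, a gene of the forelimb and heart, was higher in each of the 5 K36M libraries (1.28 to 2.71) than in WT cells (0.268 to 0.478). It was at 0 in both KD libraries against 1.01 and 0.478 in Ctrl cells. At D0 it was 23.2-fold lower when 3 reads are counted for KD cells, and the upper counting bound of its log2 ratio was -4.21. *Meox2*, a homeobox gene of somites and limb muscle, was at 0 to 0.0320 in WT and 0.172 to 1.57 in K36M cells. *Six2*, known from kidney progenitors, was at 2.33 and 1.51 in Ctrl and 0 and 0.295 in KD cells. At D0 it was 28.5-fold lower when 3 reads are counted for KD cells, and the upper counting bound of its log2 ratio was -4.51. Of 6 retinoic acid receptors and CYP26 enzymes, which set and read the signal that turns on anterior Hox genes in the embryo, *Cyp26b1*, which breaks retinoic acid down, was higher in KD cells on both days, at 1.71 and 0.380 in Ctrl and 10.8 and 2.16 in KD cells. It was lower in K36M than in WT cells at D0 (2.48 and 1.01) and with DMSO (3.59 and 0.969). *Rarg*, a retinoic acid receptor, was higher in K36M cells at D2, at 4.32 and 11.1, and at D7, and *Cyp26c1* was higher at D7, at 0.0482 and 1.26.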

How the data were processed

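RNA-Seq was performed by the authors on 14 cultures of immortalized brown preadipocytes with poly(A) mRNA purified on Dynabeads. The deposited values are RPKM per RefSeq transcript, which the authors normalized for transcript length and mapped reads. The processing notes name mm9, CASAVA 1.8.2, and SICER, which the paper ties to ChIP-Seq. The RNA aligner, counter, and strand setting are not given in the sources used here, and the 20 ChIP-Seq samples were not analysed here.

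A symbol was found for 28436 of 29082 transcripts, and each gene was read from the transcript with the highest mean RPKM. Whole reads were recovered from the RPKM steps for 26943 of the 26946 transcripts that 2 or more libraries detected (tolerance 0.001 reads). Their step gave mapped reads of 12213559 to 24365867 per library, and ratios received 95% Clopper-Pearson intervals (scipy 1.17.1), which cover counting error only. The reading of reads and calls was tested on simulated data.

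Groups came from the labels, with 1 library each, so 11 comparisons were described by ratios with no test. Members with a mean RPKM of at least 1 or called in any comparison were named, as were at most 3 genes of each list (trithorax, Polycomb, TALE cofactors, positional homeobox and T-box genes, retinoic acid genes, flanking genes) with the largest call in a K36M or KD comparison. The members and lists were chosen with earlier results of these data known. Alternatives were another floor, pseudocount, scaling, call rule, and transcript. Coordinates are mm9 (GENCODE M1), and promoter sequences are RefSeq. Some single-gene values that the rule would name are not reported here, while counts and sums cover all members.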

Additional observations from a re-analysis of the deposited data

Results flagged for a closer look

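*Hoxa2* moved in opposite directions in K36M cells under 2 conditions. At D2 the K36M value exceeded the WT value, with a log2 ratio of 1.14 (counting interval 0.54 to 1.76), and with ectopic PPARγ and Rosi it was lower, with a log2 ratio of -1.14 (interval -2.06 to -0.29). The 2 ratios were 2.28 apart on the log2 scale. With 1 library per condition this difference was not tested.

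A difference was also seen outside the Hox genes themselves, in the opposite-strand transcript *Hoxa11os*, which was left out of the members. Its RPKM was 1.05 to 2.28 in the 7 K36M and KD libraries, against 0 to 0.178 in the 7 WT and Ctrl libraries. Of all genes, 0.155% lay above in this way. *Hoxa11os* was picked with these values known and passed the floor only through K36M and KD libraries. The separation is therefore a description and not support for a rise. The exons of *Hoxa11os* overlap those of *Hoxa11*, which is separated the same way. Without a stated strand setting the reads of the pair cannot be told apart.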

How the results depend on the processing

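No paired analysis was possible because each condition has 1 library and no replicate numbers, so no replicate could be left out of a condition. Of 121 alternative values, 94 kept within 1.5 times of the value reported and 27 did not, 0 reversed. Taking the longer transcript changed none of its 23.
Without the floor, calls higher became 8 for K36M against WT at D0, 13 with DMSO, 14 with Rosi, 3 for D2 against D0 in WT, 4 for D7 against D2 in WT, and 1 for D2 against D0 in Ctrl, and calls lower with Rosi in WT became 7, since low genes then enter. A counting interval excluding 1 in place of the floor gave 8 higher for K36M at D0, 11 with Rosi, 1 for D2 against D0 in WT, and 2 for D7 against D2 in WT.
A pseudocount of 1, which shrinks ratios of low genes by construction, gave 5 higher for K36M at D2, 4 with DMSO and 4 with Rosi, and 2 for KD at D2. It left 0 lower for K36M at D7, 1 with DMSO, 1 with Rosi, 1 for KD at D2, 2 for D2 against D0 in WT, 6 in Ctrl, and 0 for Rosi in WT. Median-ratio scaling, which moved all genes by -0.10 to 0.11 log2, added 1 lower for K36M at D2 and 1 higher for D7 against D2 in WT. Of the active genes, 19 had a mean of at least 2 and 13 had an RPKM of at least 1 in every library. Without the PPARγ libraries, an alternative chosen after seeing the data, 9 of 31 members in place of 4 of 32 were separated upward in K36M cells. Of all genes, 6.82% in place of 1.24% were, since fewer libraries separate more easily. In both counts 4 members reached the floor only through K36M libraries, so both are descriptions.
Some values under an RPKM of 1 rest on few reads. Others rest on more, such as 20 reads for *Hoxa10* at D0 and 42 for *Hoxa9* at D2 in WT cells. Levels of silent members below about 3 reads per library cannot be measured well at this depth.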
